A study of Sus scrofa with 18 samples.

Results

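The urokinase plasminogen activator system was followed in the messenger RNA of pig tumours and of normal pig tissue. It was taken as 5 genes, PLAU, PLAUR, PLAT, SERPINE2 and ST14, chosen by symbol from the 27339 genes of the deposited count table, and all 5 were among the 12895 genes with enough counts to be tested. The tumours came from a double knock-in (DIK) pig, whose genome carries elements of a doxycycline-controlled (Tet-on) switch and of the phiC31 integrase, an enzyme that recombines DNA. Of 3 DIK founders treated with doxycycline when 7 months old, alongside WT (wild-type) pigs of the same age, 1 grew tumours, at the nose, mouth and scrotum, and its tissue and that of WT were taken 8 months later. The 6 groups were DIK nose, DIK mouth and DIK scrotum (tumour) and WT nose, WT mouth and WT scrotum (normal tissue), with 3 libraries in each. DIK and WT pigs thus both received doxycycline. All 9 DIK libraries came from 1 animal, and neither the number of WT animals nor the gene switched on in the tumours is stated by the labels. The spread between libraries of a DIK group may therefore be technical, or that within an animal, and in WT it may also be that between animals. The tests use 1 shared estimate of these spreads, and their p-values do not reach beyond this 1 DIK animal.

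Plasminogen activators are secreted serine proteases that cut the circulating zymogen plasminogen into plasmin, a protease that dissolves fibrin and degrades matrix proteins. PLAU encodes urokinase, which works at the cell surface when bound to its anchored receptor, encoded by PLAUR, and PLAT encodes tissue plasminogen activator, best known for its action on fibrin in blood vessels. SERPINE2 encodes protease nexin 1, a secreted inhibitor of thrombin, urokinase and tissue plasminogen activator. ST14 encodes matriptase, a membrane protease of epithelial cells that can activate the zymogen form of urokinase. In normal skin urokinase and its receptor are known for their part in keratinocyte migration during wound repair.

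Levels are given in CPM, a gene's counts scaled to a common library total with TMM factors. A difference is a log2 difference, DIK minus WT unless another pair is named, as estimate ± SE from edgeR's quasi-likelihood test. Calls are genes whose adjusted p, over all tested genes, lay under 0.05. Library totals ran from 2024959 to 4146150 counts in DIK and from 418665 to 5041470 in WT. The lowest total was that of WT nose replicate 1, where 3 counts equal 5.76 CPM, against 0.483 to 1.88 CPM in the other libraries.

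The tissues compared differed in composition. A list of squamous keratinocyte markers, with 11 of its 12 genes in the table, summed to between 74028 and 142815 CPM in the 9 DIK libraries and to between 105 and 29752.8 CPM in the 9 WT libraries. The high WT value belonged to WT scrotum replicate 2, and within the WT mouth group replicate 1 was highest at 1556 CPM. Neutrophil markers summed to between 2656 and 20389.8 CPM in DIK, highest in DIK nose replicate 2, and to between 3.70 and 79.7 CPM in WT. Fibroblast and matrix markers summed to between 825 and 3807 CPM in DIK and to between 5013 and 32221 CPM in WT. The neutrophil list had all 6 and the fibroblast list all 8 genes in the table, with CXCL8 at 0 in every WT nose library, and none of these markers or those of keratinocytes was at 0 over a whole DIK group. Skeletal muscle markers summed to 81384 to 116965 CPM in WT nose and 97916 to 236277 CPM in WT scrotum. They summed to 1194 to 3618 CPM in WT mouth and 3.16 to 926 CPM in DIK. Smooth muscle sums were 49137 to 89971 CPM in WT mouth, 2037 to 11266 CPM in other WT and 159 to 488 CPM in DIK. Gland sums were 51519 to 89275 CPM in WT nose, 32.9 to 1177 CPM in other WT and 1.88 to 13.9 CPM in DIK. Some of these muscle and gland genes were at 0 over a whole DIK group. In bulk tissue a gene carried by fewer cells and one with less RNA per cell cannot be told apart. Posterior HOX genes, which mark the hind body, summed to 10.8 to 18.2 CPM in DIK mouth and 40.6 to 67.3 CPM in WT mouth, but to 0.625 to 3.63 CPM in DIK scrotum and 2.52 to 4.26 CPM in WT scrotum. The labels mouth and scrotum go against these genes, so mouth and scrotum name the label of a library throughout, and each direction between them rests on those labels.

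In the tumours the urokinase gene PLAU and the inhibitor gene SERPINE2 were higher than in WT at every label, and the receptor gene PLAUR was called higher at scrotum. The tissue activator gene PLAT was called lower at mouth and higher at scrotum, while ST14 was not called at any single label. At nose 2 of the 5 genes were called higher and 0 lower, where 21.9% of all tested genes were called higher and 20.1% lower. At mouth 2 were called higher and 1 lower, against 22.7% and 24.3% of all tested genes. At scrotum 4 were called higher and 0 lower, against 19.4% and 24.0% of all tested genes. Both counts of 0 were the same at an unadjusted p under 0.05, with DESeq2 and with limma-voom. The median log2 difference of all tested genes was 0.03 at nose, -0.04 at mouth and -0.09 at scrotum.

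**Figure D1:**
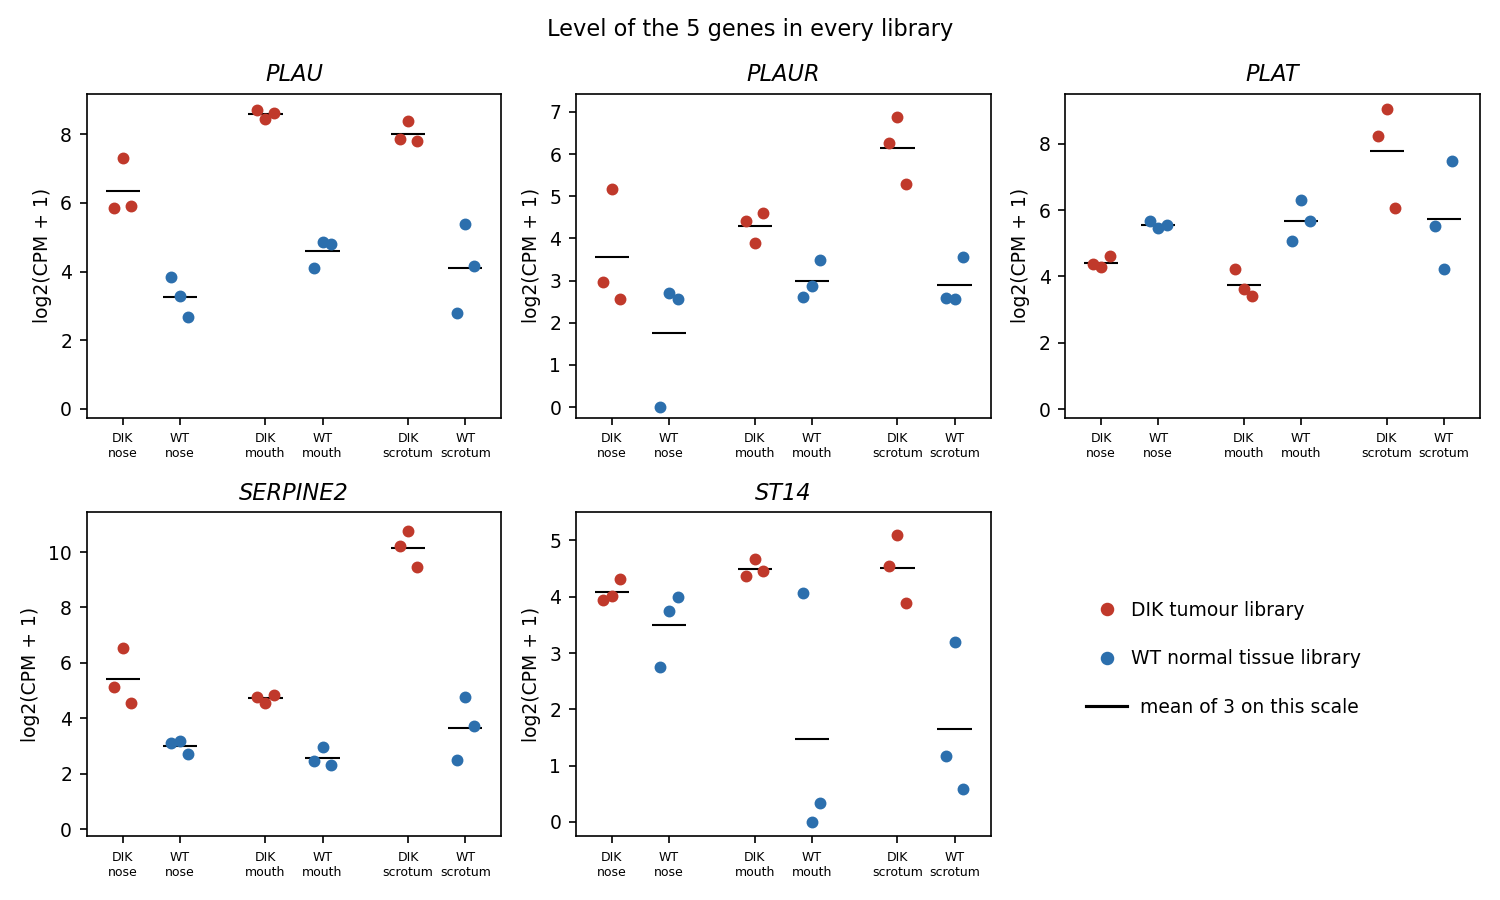
Levels of PLAU, PLAUR, PLAT, SERPINE2 and ST14 in the 18 libraries, as log2(CPM + 1); each point is a library, DIK in red and WT in blue, and each bar is the mean of the 3 points of a group. All DIK points of PLAU lie above all WT points of the same label, PLAT is below WT at mouth, and SERPINE2 stands highest in the 3 DIK scrotum libraries.

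PLAU, urokinase, stood between 56.3 and 415 CPM in the 9 tumour libraries and between 5.34 and 40.8 CPM in the 9 WT libraries. The DIK and WT libraries thus did not overlap anywhere. Within a label, 29.2% of all tested genes at nose, 29.0% at mouth and 24.0% at scrotum were higher in DIK with no overlap. In the nose libraries it was 56.3, 159 and 59.2 CPM in DIK and 13.4, 8.76 and 5.34 CPM in WT. In the mouth libraries it was 415, 344 and 388 CPM in DIK and 16.3, 28.1 and 27.0 CPM in WT. In the scrotum libraries it was 229.7, 335 and 222.5 CPM in DIK and 5.87, 40.8 and 17.1 CPM in WT. DIK nose replicate 2 was the highest nose library, and WT scrotum replicate 2, the WT library with the most keratinocyte marker RNA, was the highest WT library. The differences were 3.46 ± 0.60 at nose (edgeR adjusted p = 0.000214), 4.01 ± 0.57 at mouth (edgeR adjusted p = 2.73e-05) and 3.61 ± 0.56 at scrotum (edgeR adjusted p = 6.26e-05). Averaged over the 3 labels, PLAU was higher by 3.69 ± 0.33, which is 12.9-fold. Squamous keratinocyte markers were higher in the same libraries, with 10 of 11 called higher at nose, 11 at mouth and 6 at scrotum, and their part in the PLAU difference was not tested.

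Among the tumours themselves PLAU averaged 91.4 ± 58.2 CPM at nose, 383 ± 35.8 CPM at mouth and 263 ± 63.2 CPM at scrotum (SD, n = 3). The order of the levels was mouth, scrotum, nose, and the libraries of these groups did not overlap. Of all tested genes 10.8% were higher in DIK mouth than in DIK nose with no overlap, 14.0% were higher in DIK scrotum than in DIK nose, and 13.9% were lower in DIK scrotum than in DIK mouth. DIK mouth differed from DIK nose by 2.07 ± 0.52 (edgeR adjusted p = 0.0551) and DIK scrotum from DIK nose by 1.52 ± 0.51 (edgeR adjusted p = 0.0929), so neither was called. Without DIK nose replicate 2 these were 2.73 (edgeR adjusted p = 0.0133) and 2.18 (edgeR adjusted p = 0.0223), and both were called. They were also called under 6 and 5 of the 12 other alternatives, with values of 2.05 to 2.71 and of 1.49 to 2.16. DIK scrotum differed from DIK mouth by -0.54 ± 0.50 and was not called. In WT the urokinase gene averaged 9.18 ± 4.06 CPM at nose, 23.8 ± 6.54 CPM at mouth and 21.2 ± 17.8 CPM at scrotum (SD, n = 3), and no pair of WT labels was called. WT mouth against WT nose, at 1.52 ± 0.58, was called under 5 of the 12 other alternatives (1.53 to 1.81), and WT scrotum against WT nose, at 1.38 ± 0.58, only without WT scrotum replicate 1 (1.81, edgeR adjusted p = 0.0414). The difference between DIK and WT was not called different between labels: mouth minus nose was 0.55 ± 0.77, scrotum minus nose 0.14 ± 0.78 and scrotum minus mouth -0.40 ± 0.72.

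PLAUR, the urokinase receptor, was far less even. In the scrotum libraries it was 76.0, 117 and 38.1 CPM in DIK and 5.04, 4.89 and 10.8 CPM in WT, with no overlap, a difference of 3.47 ± 0.68 (edgeR adjusted p = 0.000752). In the mouth libraries it was 20.2, 13.8 and 23.2 CPM in DIK and 5.15, 6.27 and 10.2 CPM in WT, again with no overlap, but the difference of 1.42 ± 0.65 was not called (edgeR adjusted p = 0.0839). At mouth 29.0% of all tested genes were higher in DIK with no overlap of libraries, and at scrotum 24.0%. In the nose libraries it was 6.80, 35.0 and 4.91 CPM in DIK and 0, 5.48 and 4.92 CPM in WT, where the 0 is that of the shallow WT replicate 1 and allows up to 5.76 CPM. The nose groups overlapped through DIK nose replicate 3. DIK nose replicate 1, at 6.80 CPM, lay a little above the WT nose libraries, and replicate 2, at 35.0 CPM, far above them. The nose difference of 1.78 ± 0.74 was not called (edgeR adjusted p = 0.0626). Without DIK nose replicate 2 it was 0.39 (edgeR adjusted p = 0.642), and without DIK nose replicate 1 or 3 it was called at 2.14 (edgeR adjusted p = 0.0338) or 2.21 (edgeR adjusted p = 0.0195).

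Over the 3 labels together PLAUR was called higher by 2.22 ± 0.40 (edgeR adjusted p = 0.000146). Its level in the tumours averaged 15.6 ± 16.9 CPM at nose, 19.1 ± 4.78 CPM at mouth and 77.1 ± 39.6 CPM at scrotum (SD, n = 3). The scrotum tumours were higher than the nose tumours by 2.32 ± 0.63 (edgeR adjusted p = 0.0434), where 3.16% of all tested genes were called higher. This call was lost without DIK nose replicate 1 or 3 or DIK scrotum replicate 1 or 2 (adjusted p of edgeR between 0.0883 and 0.19), and the value was 3.72 without DIK nose replicate 2. The scrotum and mouth tumours did not overlap, with scrotum higher, as for 12.7% of all tested genes. Their difference of 2.02 ± 0.63 was not called (edgeR adjusted p = 0.104), though 4 of the 12 other alternatives called it (2.001 to 2.03). The difference between DIK and WT was not called larger at scrotum than at nose (1.69 ± 0.98) or mouth (2.05 ± 0.91), with edgeR adjusted p = 0.314 and 0.163. Neutrophils also carry the urokinase receptor, and the summed neutrophil markers were 3461, 20389.8 and 2656 CPM in DIK nose replicates 1, 2 and 3, against 8830 to 15036 CPM in DIK scrotum and 6366 to 9793 CPM in DIK mouth. DIK nose replicate 2 was thus the highest nose library for the receptor and for the neutrophil list, and the part of neutrophils in the receptor level was not tested.

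PLAT, tissue plasminogen activator, was called in opposite directions at mouth and scrotum. In the mouth libraries it was 17.7, 11.4 and 9.60 CPM in DIK and 32.3, 77.2 and 49.6 CPM in WT, with every DIK library below every WT library, as for 29.7% of all tested genes. The mouth difference was -2.04 ± 0.74 (edgeR adjusted p = 0.0344). In the nose libraries it was 19.7, 18.3 and 23.5 CPM in DIK and 49.9, 42.7 and 45.9 CPM in WT. The nose groups did not overlap either, which held in this direction for 25.1% of all tested genes, and the difference of -1.16 ± 0.73 was not called (edgeR adjusted p = 0.218). In the scrotum libraries it was 301, 532 and 66.3 CPM in DIK and 44.5, 17.7 and 176 CPM in WT. There the groups overlapped, since WT replicate 3 exceeded DIK replicate 3, and the difference was called at 1.92 ± 0.72 (edgeR adjusted p = 0.0426).

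Both PLAT calls depended on single libraries. The mouth call was lost without DIK mouth replicate 1, 2 or 3 or WT mouth replicate 2 or 3, with differences of -1.67 to -2.33. The scrotum call was lost without DIK scrotum replicate 1 or 2 or WT scrotum replicate 1 or 2, with a difference of 1.21 without DIK scrotum replicate 2, and the difference was 3.29 without WT scrotum replicate 3. Endothelial cells are a known source of tissue plasminogen activator, and their 7 markers summed to 67.2 to 111 CPM in DIK scrotum and 115 to 745 CPM in WT scrotum, 121 to 147 CPM in DIK mouth and 368 to 494 CPM in WT mouth, and 128 to 134 CPM in DIK nose and 231 to 273 CPM in WT nose. Of these 7 endothelial genes 2 were called lower at nose, 5 at mouth and 4 at scrotum. The part of endothelial cells in the PLAT differences was not tested.

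The PLAT difference between DIK and WT was larger at scrotum than at mouth by 3.96 ± 1.03 (edgeR adjusted p = 0.0204), where 5.01% of all tested genes were called higher. The scrotum minus nose value of 3.08 ± 1.02 was not called (edgeR adjusted p = 0.0787). The first of these lost its call without DIK mouth replicate 2 or 3 or DIK scrotum replicate 2, at 3.26 to 3.88. Within the tumours PLAT averaged 299.7 ± 233 CPM at scrotum, 20.5 ± 2.68 CPM at nose and 12.9 ± 4.26 CPM at mouth (SD, n = 3). The scrotum tumours were higher than the nose tumours by 3.87 ± 0.78 (edgeR adjusted p = 0.00935) and than the mouth tumours by 4.54 ± 0.81 (edgeR adjusted p = 0.00552), where 1.83% of all tested genes were called higher. The first of these was 3.82 and not called without DIK nose replicate 1 (edgeR adjusted p = 0.0635). In WT no pair of labels was called for PLAT, whose means were 46.2 ± 3.60 CPM at nose, 53.05 ± 22.6 CPM at mouth and 79.3 ± 84.6 CPM at scrotum (SD, n = 3).

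Counts of urokinase per count of tissue plasminogen activator describe the balance between the activators within a library. Gene length is not divided out, so the ratio is read only between groups. It was 2.86, 8.66 and 2.52 in DIK nose and 0.269, 0.205 and 0.116 in WT nose. It was 23.4, 30.2 and 40.4 in DIK mouth and 0.502, 0.363 and 0.545 in WT mouth. In DIK scrotum it was 0.763, 0.630 and 3.36, against 0.132, 2.30 and 0.0970 in WT scrotum. The ratio was higher in every tumour library than in every WT library at nose and mouth, and the groups overlapped at scrotum, where PLAT was also high in the tumours. WT scrotum replicate 2 had the highest ratio of the WT libraries.

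**Figure D2:**
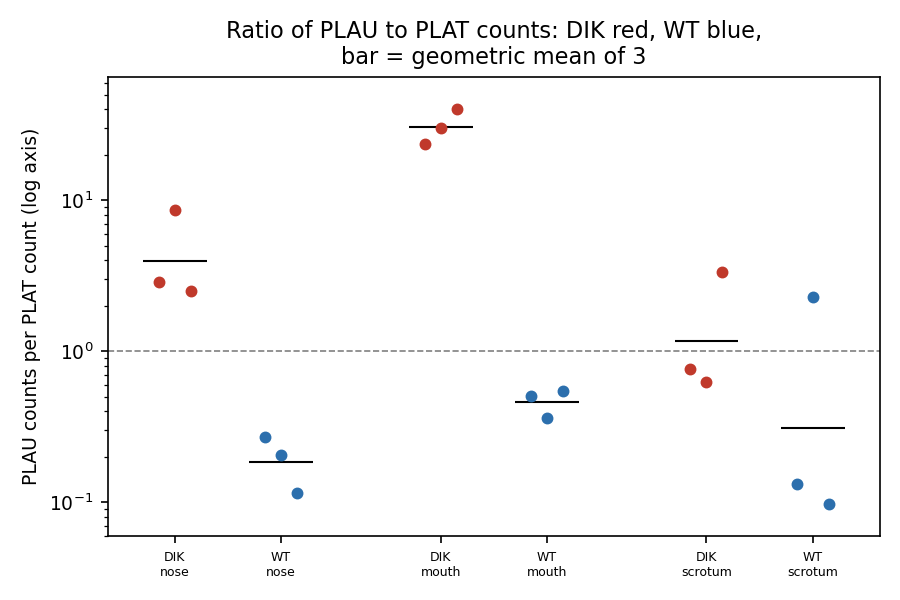
Counts of PLAU divided by counts of PLAT in each of the 18 libraries, on a log axis; each point is a library, DIK in red and WT in blue. The 3 DIK mouth libraries lie highest, between 23.4 and 40.4, and the scrotum groups overlap.

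SERPINE2, the inhibitor protease nexin 1, showed the largest difference of the 5 genes, in the scrotum libraries. There it was 1204, 1744 and 696 CPM in DIK and 4.62, 26.1 and 12.04 CPM in WT. In the nose libraries it was 33.7, 92.4 and 22.7 CPM in DIK and 7.68, 8.03 and 5.56 CPM in WT. In the mouth libraries it was 26.6, 22.6 and 28.0 CPM in DIK and 4.51, 6.80 and 3.93 CPM in WT. The groups did not overlap at any label, and DIK nose replicate 2 was again the highest nose library. Of all tested genes 29.2% at nose, 29.0% at mouth and 24.0% at scrotum were likewise higher in DIK with no overlap. The differences were 2.83 ± 0.60 at nose (edgeR adjusted p = 0.00109), 2.32 ± 0.56 at mouth (edgeR adjusted p = 0.00252) and 6.39 ± 0.65 at scrotum (edgeR adjusted p = 6.4e-07). All 3 calls held without any single library.

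The excess of SERPINE2 at scrotum was itself tested. The difference between DIK and WT was larger at scrotum than at nose by 3.55 ± 0.79 (edgeR adjusted p = 0.0117), where 3.19% of all tested genes were called higher, and larger than at mouth by 4.06 ± 0.78 (edgeR adjusted p = 0.00211). Within the tumours SERPINE2 averaged 1215 ± 524 CPM at scrotum, 49.6 ± 37.4 CPM at nose and 25.7 ± 2.80 CPM at mouth (SD, n = 3). The scrotum tumours were higher than the nose tumours by 4.61 ± 0.59 (edgeR adjusted p = 0.000227) and than the mouth tumours by 5.56 ± 0.62 (edgeR adjusted p = 3.5e-05). The nose and mouth tumours were not called apart, at -0.95 ± 0.52 for mouth minus nose, and their libraries overlapped. In WT the gene averaged 7.09 ± 1.34 CPM at nose, 5.08 ± 1.52 CPM at mouth and 14.2 ± 10.9 CPM at scrotum (SD, n = 3). No pair of WT labels was called, the nearest being scrotum against mouth at 1.499 ± 0.55 (edgeR adjusted p = 0.0581). Fibroblasts are known to make protease nexin 1, and the fibroblast and matrix markers summed to 2554 to 3807 CPM in DIK scrotum and 6120 to 32221 CPM in WT scrotum, with 7 of 8 called lower in the tumours there. In the other tumours the list summed to 825 to 2217 CPM in DIK nose and 2166 to 2555 CPM in DIK mouth, the latter overlapping DIK scrotum. The part of fibroblasts in the SERPINE2 level was not tested.

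ST14, matriptase, stood between 13.8 and 33.2 CPM in the 9 tumour libraries and between 0 and 15.8 CPM in the 9 WT libraries. In the mouth libraries it was 19.6, 24.5 and 21.1 CPM in DIK and 15.8, 0 and 0.262 CPM in WT, where a count of 0 in WT replicate 2 allows up to 0.523 CPM. In the scrotum libraries it was 22.4, 33.2 and 13.8 CPM in DIK and 1.26, 8.15 and 0.502 CPM in WT. In the nose libraries it was 14.3, 15.1 and 18.8 CPM in DIK and 5.76, 12.4 and 14.96 CPM in WT. The groups overlapped at nose and did not overlap at mouth and scrotum. Of all tested genes 29.0% at mouth and 24.0% at scrotum were higher in DIK with no overlap. None of the differences was called, at 0.39 ± 1.05 for nose (edgeR adjusted p = 0.799), 1.95 ± 1.03 for mouth (edgeR adjusted p = 0.138) and 2.69 ± 1.12 for scrotum (edgeR adjusted p = 0.0669). The WT libraries with the most ST14 at mouth and scrotum, mouth replicate 1 and scrotum replicate 2, were also those with the most keratinocyte marker RNA of their groups. At nose it was the other way: the shallow WT replicate 1 had the most marker RNA (1904 CPM) and the least ST14 (5.76 CPM, 3 counts). Without WT mouth replicate 1 the mouth difference was 7.26 and called (edgeR adjusted p = 6.32e-05), and without WT scrotum replicate 2 the scrotum difference was 4.82 and called (edgeR adjusted p = 0.0205).

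Over the 3 labels ST14 was called higher in DIK by 1.68 ± 0.61 (edgeR adjusted p = 0.0282), and 4 of the 5 genes were called higher in that mean, where 31.2% of all tested genes were. This ST14 call was lost without DIK scrotum replicate 2, at 1.56 (edgeR adjusted p = 0.0539), and the value was 3.45 without WT mouth replicate 1. PLAT was the exception, with a mean difference of -0.43 ± 0.41 (edgeR adjusted p = 0.377), since its differences at the labels had opposite signs. In the tumours ST14 averaged 16.1 ± 2.42 CPM at nose, 21.7 ± 2.53 CPM at mouth and 23.1 ± 9.77 CPM at scrotum (SD, n = 3), and no pair of tumour labels was called.

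**Figure D3:**
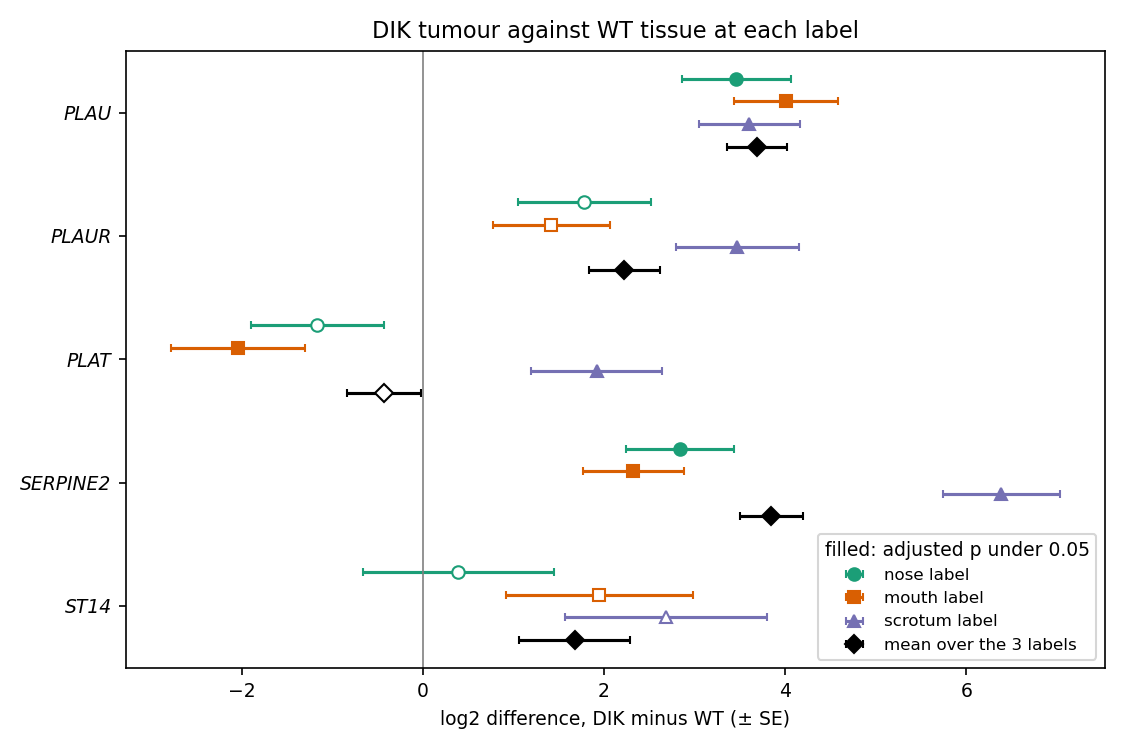
Log2 differences between DIK and WT for the 5 genes at each label and in the mean over the 3 labels; points are edgeR estimates, bars are ± 1 SE, and filled points passed an adjusted p under 0.05. SERPINE2 at scrotum lies farthest from 0, at 6.39, and PLAT is the only gene with called differences on both sides of 0.

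**Figure D4:**
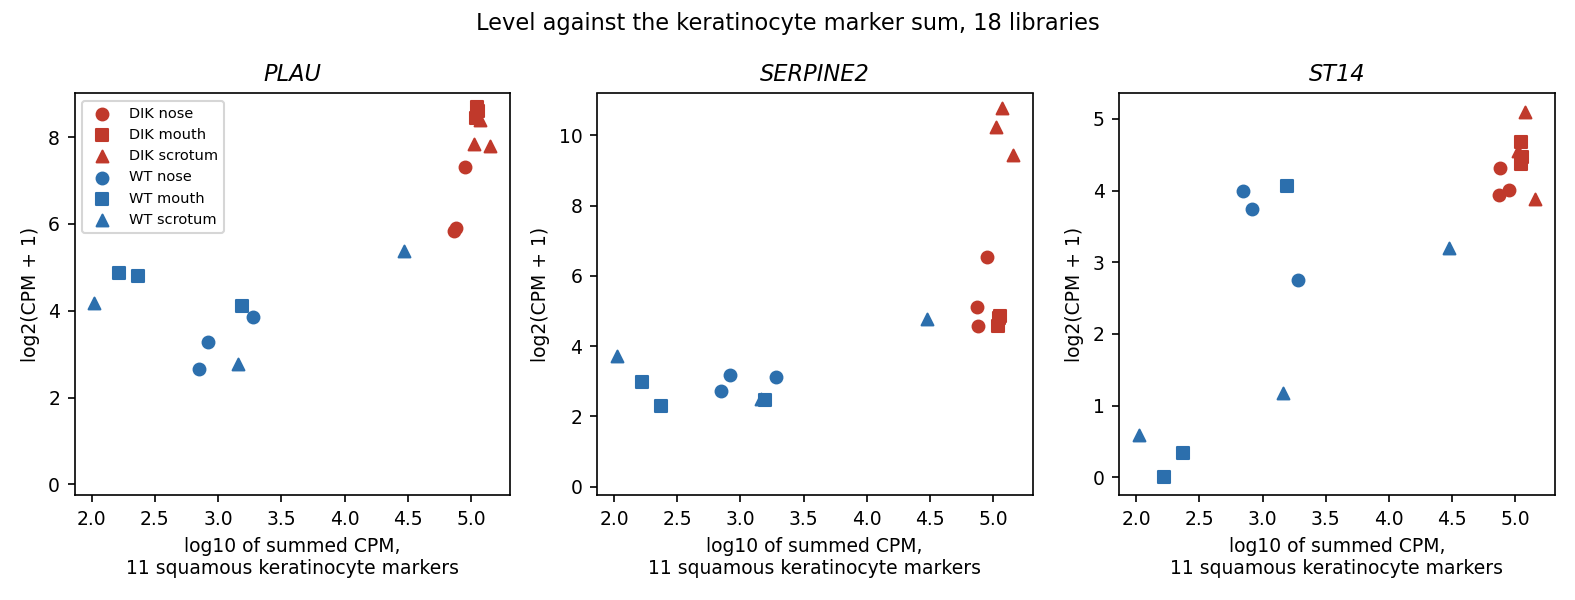
Levels of PLAU, SERPINE2 and ST14, as log2(CPM + 1), against the summed level of the 11 keratinocyte markers, as log10 of CPM, in the 18 libraries; each point is a library, DIK in red and WT in blue, with a symbol for each label. All DIK libraries lie to the right of all WT libraries, and within WT the library with the highest marker sum, WT scrotum replicate 2 at 29752.8 CPM, also has the highest PLAU of the WT libraries.

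The plasminogen cascade around these genes was examined through lists of related genes. PLG, plasminogen itself, had 0 counts in all 9 tumour libraries, which allows 0.728 to 1.88 CPM per library, and 10.1, 12.03 and 0.787 CPM in WT mouth. It is known to be made mainly in the liver, and it was not tested for lack of counts.

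SERPINB2, plasminogen activator inhibitor 2, was highest in the nose and mouth tumours, a difference between tumours that was not tested for it. It was 151, 253 and 119 CPM in DIK nose and 3.84, 0.365 and 1.07 CPM in WT nose, a difference of 7.32 ± 1.501 (edgeR adjusted p = 0.00173). It was 141, 86.5 and 166 CPM in DIK mouth and 0.483, 0 and 0.262 CPM in WT mouth, a difference of 8.83 ± 1.55 (edgeR adjusted p = 0.00047). In DIK scrotum it was 71.0, 66.9 and 60.0 CPM, and in WT scrotum 1.26, 75.0 and 1.505 CPM, a difference of 1.32 ± 1.01 that was not called (edgeR adjusted p = 0.312). WT scrotum replicate 2 exceeded all 3 DIK scrotum libraries, and without it the difference was 5.52 and called. SERPINI1, neuroserpin, an inhibitor of tissue plasminogen activator, was low, at 3.30 ± 1.03 CPM in DIK mouth and 0.336 ± 0.292 CPM in WT mouth (SD, n = 3), a difference of 3.23 ± 0.67 (edgeR adjusted p = 0.000703). SERPINI1 was not called at nose (-0.18 ± 0.52, edgeR adjusted p = 0.81) or scrotum (-0.28 ± 0.54, edgeR adjusted p = 0.697).

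Proteins that hold plasminogen at the cell surface formed a list of 5 genes. Of these 2 were called higher at nose, 3 at mouth and 2 at scrotum, and 1 was called lower, at scrotum. Of all tested genes 21.9%, 22.7% and 19.4% were called higher at nose, mouth and scrotum, and 20.1%, 24.3% and 24.0% were called lower, so the 1 gene lower at scrotum is near that share. ANXA2 and S100A10, whose products form a complex that binds plasminogen and tissue plasminogen activator, were higher at every label. ANXA2 differed by 2.46 ± 0.41 at nose, 2.60 ± 0.41 at mouth and 2.16 ± 0.41 at scrotum (edgeR adjusted p of 0.000351 or less). S100A10 differed by 1.93 ± 0.44 at nose, or 1.15 without DIK nose replicate 2, by 2.29 ± 0.45 at mouth and by 2.88 ± 0.46 at scrotum (edgeR adjusted p of 0.00197 or less). PLGRKT, a plasminogen receptor with a C-terminal lysine, was 24.4, 15.3 and 17.1 CPM in DIK mouth and 11.7, 8.71 and 6.56 CPM in WT mouth, and 20.7, 14.7 and 13.1 CPM in DIK scrotum and 38.2, 21.8 and 33.4 CPM in WT scrotum. It was called higher at mouth, by 1.05 ± 0.32 (edgeR adjusted p = 0.0108), and lower at scrotum, by -0.92 ± 0.31 (edgeR adjusted p = 0.0242). The mouth call was lost without DIK mouth replicate 1 or WT mouth replicate 3 (0.83 and 0.88), and the scrotum call without DIK scrotum replicate 2 or 3 or WT scrotum replicate 1 or 3 (-0.75 to -0.86).

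**Figure D5:**
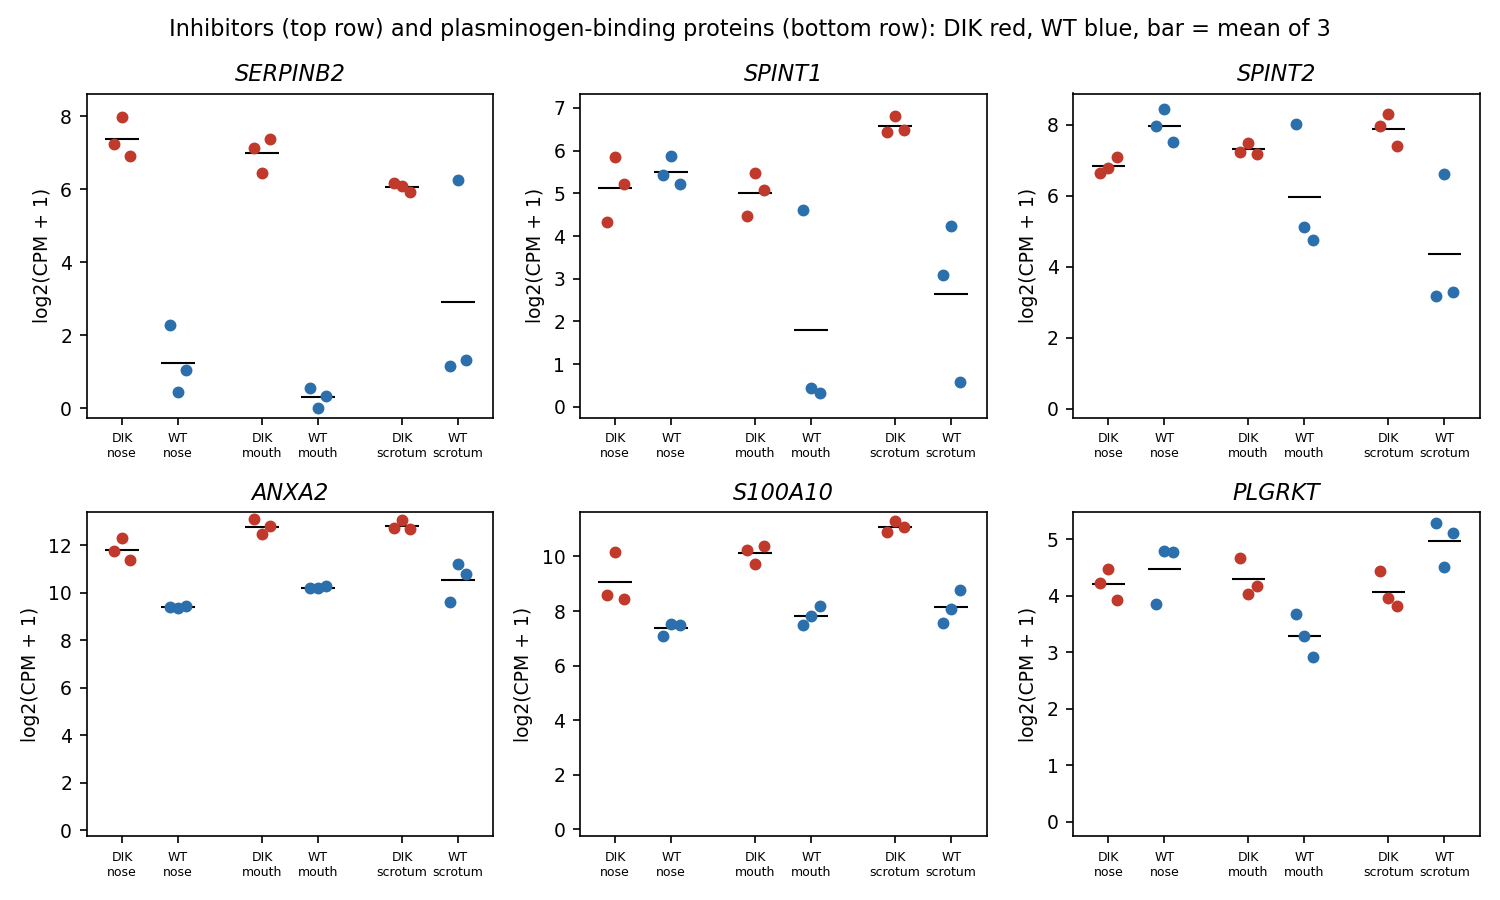
Levels of the inhibitor genes SERPINB2, SPINT1 and SPINT2 (top) and of the plasminogen-binding genes ANXA2, S100A10 and PLGRKT (bottom) in the 18 libraries, as log2(CPM + 1); each point is a library, DIK in red and WT in blue, and each bar is the mean of the 3 points of a group. ANXA2 and S100A10 are higher in every DIK library than in every WT library of the same label, and SERPINB2 overlaps at scrotum through WT replicate 2 at 75.0 CPM.

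The urokinase receptor has no part inside the cell and is known to signal through integrins, and receptors of the LDL receptor family take up complexes of urokinase and inhibitor. Of 12 tested genes for such partners, 1 was called higher and 4 lower at nose, 0 and 7 at mouth, and 3 and 2 at scrotum, with median differences of -0.03, -0.97 and 0.04. Of all tested genes 21.9% were called higher and 20.1% lower at nose, 22.7% and 24.3% at mouth, and 19.4% and 24.0% at scrotum. ITGA5, the integrin chain of the fibronectin receptor, averaged 66.3 ± 9.44 CPM in DIK mouth and 549 ± 232 CPM in WT mouth (SD, n = 3), a difference of -3.05 ± 0.53 (edgeR adjusted p = 0.000161). At scrotum ITGA5 was called higher by 1.63 ± 0.50 (edgeR adjusted p = 0.0144) with overlapping libraries. That scrotum call was lost without DIK scrotum replicate 2 or WT scrotum replicate 1 (1.36 and 1.34), and the value was 2.75 without WT scrotum replicate 3. ITGB3, a chain of the vitronectin receptor, differed by -2.39 ± 0.57 at nose and -4.01 ± 0.59 at mouth (edgeR adjusted p = 0.00328 and 5.23e-05). VLDLR, an uptake receptor, was lower at every label, by -1.17 ± 0.36 at nose, -1.96 ± 0.36 at mouth and -2.10 ± 0.36 at scrotum (edgeR adjusted p of 0.0142 or less), and the nose call was lost without DIK nose replicate 2 (-1.03). LRP1, another uptake receptor, was called lower at mouth by -1.01 ± 0.34 (edgeR adjusted p = 0.0214), a call lost without DIK mouth replicate 1 or 2 or WT mouth replicate 2 or 3 (-0.86 to -0.92), and differed by -0.15 ± 0.35 at nose and -0.02 ± 0.34 at scrotum.

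Matriptase works with other surface proteases and is held in check by Kunitz-type inhibitors. Of 7 tested genes of this network 2 were called higher and 1 lower at nose, and 3 higher at mouth and at scrotum. The shares of all tested genes were 21.9% higher and 20.1% lower at nose, 22.7% higher at mouth and 19.4% higher at scrotum. TMPRSS4, a membrane serine protease that can also activate urokinase, averaged 53.9 ± 6.38 CPM in DIK nose and 1.72 ± 0.549 CPM in WT nose (SD, n = 3), a difference of 4.94 ± 1.21 (edgeR adjusted p = 0.00522). At mouth it differed by 4.18 ± 1.03 (edgeR adjusted p = 0.00451), or 6.83 without WT mouth replicate 1. At scrotum it differed by 4.07 ± 0.99 (edgeR adjusted p = 0.00472), or 6.41 without WT scrotum replicate 2. TMPRSS13, a related protease, and F2RL1, a protease-activated receptor, were called higher at mouth by 4.17 ± 1.16 and 2.26 ± 0.63 (edgeR adjusted p = 0.00975 and 0.00729), or by 6.31 and 3.47 without WT mouth replicate 1. TMPRSS13 was also called higher at nose, by 3.58 ± 1.18 (edgeR adjusted p = 0.0255), where F2RL1 was not (-0.21 ± 0.69). At scrotum neither was called (2.37 and 0.30). PRSS8, prostasin, a partner protease of matriptase, was not called, at -1.30 ± 1.09 for nose, 0.97 ± 1.12 for mouth and 1.14 ± 1.15 for scrotum. It was called higher at mouth without WT mouth replicate 1 (4.06, edgeR adjusted p = 0.0255) and at scrotum without WT scrotum replicate 2 (6.02, edgeR adjusted p = 0.0122).

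The genes of the matriptase inhibitors were called higher at scrotum. SPINT1 was 85.2, 112 and 88.8 CPM in DIK scrotum and 7.55, 17.9 and 0.502 CPM in WT scrotum, a difference of 3.43 ± 1.17 (edgeR adjusted p = 0.03). SPINT2 was 249, 316 and 168 CPM in DIK scrotum and 7.97, 97.8 and 8.78 CPM in WT scrotum, a difference of 2.66 ± 0.95 (edgeR adjusted p = 0.0349). WT scrotum replicate 2 was the highest WT scrotum library for ST14 and for both inhibitors, and the SPINT2 difference was 4.86 without it. Both calls were lost without DIK scrotum replicate 2 or WT scrotum replicate 1 or 3, and that of SPINT2 also without DIK scrotum replicate 1 (2.86 to 3.34 for SPINT1, 2.19 to 2.65 for SPINT2). Neither inhibitor was called at nose (-0.29 ± 1.07 and -1.18 ± 0.90) or mouth (1.98 ± 1.11 and 0.58 ± 0.89). Without WT mouth replicate 1 both were called higher at mouth, SPINT1 by 6.55 (edgeR adjusted p = 0.000489) and SPINT2 by 2.39 (edgeR adjusted p = 0.0321).

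Growth factors that plasmin, the plasminogen activators or matriptase are known to activate, together with the receptors of such factors, formed a list with 8 tested genes. Of these 3 were called higher and 4 lower at nose, 4 and 3 at mouth, and 1 and 1 at scrotum, where 19.4% of all tested genes were called higher and 24.0% lower. At nose the shares of all tested genes were 21.9% and 20.1%, and at mouth 22.7% and 24.3%. MET, the receptor of hepatocyte growth factor, was higher at mouth by 3.01 ± 0.47 (edgeR adjusted p = 6.2e-05), and TGFB1, a latent growth factor, at scrotum by 2.27 ± 0.47 (edgeR adjusted p = 0.000771). MET was also called higher at nose, by 1.31 ± 0.46 (edgeR adjusted p = 0.0289), but not at scrotum (0.79 ± 0.45). PDGFRA, a receptor of platelet-derived growth factors that fibroblasts carry, was lower by -1.49 ± 0.41 at nose, -3.26 ± 0.44 at mouth and -2.25 ± 0.44 at scrotum (edgeR adjusted p of 0.00667 or less). Its ligand gene PDGFC was lower at nose by -2.52 ± 0.42 (edgeR adjusted p = 0.000123). The fibroblast marker list had 6, 7 and 7 of 8 genes called lower at nose, mouth and scrotum. PDGFRA is itself on that list and is counted in these numbers. The part of fibroblasts in the PDGFRA difference was not tested.

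PLAUR belongs to a family of small anchored proteins with the Ly6/uPAR fold, several of them known from squamous epithelium. Of 7 tested relatives 6 were called higher at nose, 6 higher and 1 lower at mouth, and 1 higher and 2 lower at scrotum. Of all tested genes 21.9% were called higher at nose, 22.7% higher and 24.3% lower at mouth, and 19.4% higher and 24.0% lower at scrotum. LYPD3, known as a structural relative of the urokinase receptor, averaged 3956 ± 209 CPM in DIK nose and 20.9 ± 28.4 CPM in WT nose (SD, n = 3), a difference of 7.78 ± 1.95 (edgeR adjusted p = 0.00601), and it differed by 9.73 ± 2.08 at mouth (edgeR adjusted p = 0.00189). LY6D, a keratinocyte surface protein, differed by 7.49 ± 2.04 at nose and 8.79 ± 2.15 at mouth (edgeR adjusted p = 0.00984 and 0.00443). LY6E differed by 3.03 ± 0.51 and 2.86 ± 0.49 at the same labels. CD59, the complement inhibitor, was the relative called lower at mouth, by -2.38 ± 0.31 (edgeR adjusted p = 8.34e-06). At scrotum LYPD3 and LY6D were not called, though their tumour levels were also high there. They averaged 3574 ± 447 and 8970 ± 1358 CPM in DIK scrotum, and 4584 ± 543 and 5721 ± 809 CPM in DIK mouth (SD, n = 3). Other relatives went another way, with 2 called lower at scrotum. LYPD3 and LY6D reached 1288 and 5017 CPM in WT scrotum replicate 2, against at most 15.1 and 14.7 CPM in the other WT scrotum libraries. PLAUR had 4.89 CPM in that library.

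Across the 18 libraries the members did not move as 1 unit. Pearson's r of their log levels is given as a description, since the libraries share groups and an animal. It was 0.79 between PLAUR and SERPINE2, 0.73 between PLAU and PLAUR, 0.72 between PLAU and SERPINE2 and -0.07 between PLAU and PLAT. After each group's mean was subtracted, r was 0.88 between PLAU and SERPINE2 and 0.12 between PLAU and PLAUR. Within the 9 tumour libraries r was 0.93 between PLAT and SERPINE2, both highest at scrotum, and in the 9 WT libraries it was -0.16. Over all 18 libraries r between PLAT and SERPINE2 was 0.08 once each group's mean was subtracted. Among 8511 genes with a mean of at least 5 CPM, those most like PLAU were ANXA2, CTSV and CAPG, with r from 0.96 to 0.97. Those most like PLAUR were VPS37B, FAM20A and ELK3 (0.92 to 0.93), and those most like PLAT were CLU, BCAR3 and TRIM8 (0.81 to 0.87). Those most like SERPINE2 were BMP2, AMCF-II and PADI4 (0.96 to 0.97), and those most like ST14 were CLDN4, FKBP4 and RUNX1 (0.96 to 0.97).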

How the data were processed

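Tissue was stored in RNAlater, its RNA extracted with TRIzol, and the VAHTS mRNA-seq V3 kit used for library construction, per the labels' protocols. Per the submitters' processing notes, the tools were fastp, HISAT2 2.1.0 and HTSeq 0.11.2. Genome build, annotation, strand setting and multiple mapping are not given in the sources used, so no coordinates appear, and antisense reads could not be separated. Values in the deposited table are the authors' raw read counts for each gene. The 5 members' symbols, and 26838 of 27339 in all, matched a RefSeq table of Sscrofa11.1 used for names only.

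After TMM scaling, counts were tested with edgeR 4.0.16 in R 4.3.3 (quasi-likelihood, robust, 6 group means over 18 libraries; common biological coefficient of variation 36.1%). The default filter (minimum count 10, total 15) kept 12895 genes and at least 99.1% of counts. P-values were adjusted by Benjamini-Hochberg within each of 13 contrasts. SE is the absolute log2 difference over the square root of F. Correlations used log CPM with a prior count of 2. Floors are 3 counts and cover counting error only. Alternatives were other scalings and filters, DESeq2 1.42.0, limma-voom (limma 3.58.1), only the groups compared, a replicate block, a stricter threshold and libraries left out. Simulated data with known changes were used to test the fits. No 2 libraries of the same group were duplicates within sampling noise, and libraries of different groups were not compared in this way.

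The members and lists were chosen with earlier results of these data known. The text names the members, fixed partner genes and, by rule, up to 3 called genes per list, direction and label; the rule gave 34 genes over the 3 labels, and those printed were picked after their values were seen. Certain genes of these lists are not reported here.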

Additional observations from a re-analysis of the deposited data

Results flagged for a closer look

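For 2 members the difference between DIK and WT was itself called different between the scrotum and another label by edgeR's interaction test. Partner genes were called too, and 3 of them, SERPINB2, PLGRKT and ITGA5, are described here. The others included SERPINI1 (-3.51), ITGB3 (3.13) and ITGB1 (2.81) for scrotum minus mouth, and LRPAP1 (1.54) for scrotum minus nose. For SERPINE2 it was larger at scrotum than at nose by 3.55 and than at mouth by 4.06 on the log2 scale, and in each of these comparisons the sign of the difference between DIK and WT was the same at both labels. For PLAT the scrotum minus mouth value was 3.96, with called differences of opposite sign at these labels. For SERPINB2 it was -7.52, and -3.31 without WT scrotum replicate 2, still called; the call was lost with only the groups compared (-7.48) and at an adjusted p under 0.01. PLGRKT differed by -1.97 and ITGA5 by 4.68, each with opposite signs at mouth and scrotum. These values share the scrotum libraries, and the labels mouth and scrotum go against the posterior HOX genes. No group held the 4 libraries needed to test a single library against its group, so none was tested that way.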

How the results depend on the processing

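The calls of PLAU and SERPINE2 between DIK and WT kept their direction and their call at each label and in the mean under every alternative run. Those of PLAUR at scrotum and in the mean did so too. The members' other calls at a label or in the mean depended on the processing, and for each change the cause was not tested. Fits of only the groups compared estimate the spread from fewer libraries, and leaving out libraries shrinks a group. The PLAT call at mouth (-2.04) was lost with no filter (-2.08), under an adjusted p of 0.01 and in the block fit, and that at scrotum (1.92) with upper-quartile scaling (1.81), no filter (1.90), only the groups compared (1.88), the threshold of 0.01 and either set of libraries left out together (1.503 without 2 and 1.501 without 3). The PLAT scrotum minus mouth value (3.96) lost its call with no filter (3.98), only the groups compared (3.95) and the threshold of 0.01, and its scrotum minus nose value was called by DESeq2 (3.12) and limma-voom (2.96). PLAT at nose was called with only the groups compared (-1.16), which gave 1 member called lower there. PLAUR was called at nose by DESeq2 (1.85) and at mouth by limma-voom (1.44) and only the groups compared (1.36). The mean of ST14 lost its call with library size alone (1.48), no filter (1.65) and the threshold of 0.01 (1.68). The SERPINE2 scrotum minus nose value (3.55) lost its call at that threshold. limma-voom with quality weights called ST14 at mouth (6.63) and scrotum (4.28), and its mouth minus nose (6.31) and scrotum minus nose (3.95) values, and gave reversed signs for scrotum minus mouth in ST14 (-2.36) and PLAU (0.53) and for mouth minus nose in PLAUR (0.44). Only the groups compared called ST14 at scrotum (2.72).

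A fit without 3 libraries (DIK nose replicate 2, WT mouth replicate 1, WT scrotum replicate 2), chosen after seeing the data, called PLAUR at mouth (1.22) and in scrotum minus nose (2.97) and scrotum minus mouth (2.08), ST14 at mouth (7.25) and scrotum (4.90) and in mouth minus nose (6.88) and scrotum minus nose (4.52), and PLAU in scrotum minus nose (1.64). It reversed scrotum minus mouth of PLAU (0.73) and ST14 (-2.36) and mouth minus nose of PLAUR (0.89) and SERPINE2 (0.17). A fit without 2 (WT scrotum replicate 2 and WT nose replicate 1) called ST14 at scrotum (4.89) and reversed scrotum minus mouth of PLAU (0.54). Members called higher at mouth numbered 2, and 4 with limma-voom or the 3 libraries left out; those lower at mouth 1, and 0 with no filter, the block or the threshold of 0.01. For mouth minus nose the count of 0 became 1 with limma-voom or the 3 libraries left out. For scrotum minus nose the count of 1 became 2 with DESeq2, 3 with limma-voom, 4 with the 3 libraries left out and 0 at the threshold of 0.01. For scrotum minus mouth the count of 2 became 1 with no filter, only the groups compared or the threshold of 0.01.

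With single libraries left out, values changed call or sign within these ranges. PLAU ran from -0.29 to 0.97 for scrotum minus nose and from -0.83 to 0.47 for scrotum minus mouth. PLAUR ran from 0.39 to 2.21 at nose, from -0.79 to 1.03 for mouth minus nose and from 1.25 to 3.08 for scrotum minus nose. PLAT ran from -2.33 to -1.67 at mouth, from 1.21 to 3.29 at scrotum, from -0.66 to 0.028 in the mean, from 2.38 to 4.45 for scrotum minus nose and from 3.26 to 5.33 for scrotum minus mouth. SERPINE2 ran from -0.85 to 0.30 for mouth minus nose. ST14 ran from 1.37 to 7.26 at mouth, from 2.17 to 4.82 at scrotum, from 1.48 to 3.45 in the mean, from 0.98 to 6.89 for mouth minus nose and from -4.54 to 2.88 for scrotum minus mouth. Counts of members ran from 0 to 1 (lower at mouth, higher in mouth minus nose, lower in scrotum minus mouth) and from 1 to 2 (higher in both contrasts with scrotum). Differences that were not called also changed sign between labels of one genotype: PLAUR from -0.13 to 1.69 for DIK mouth against nose; ST14 from -0.24 to 0.35 for DIK scrotum against mouth, and -0.22 with library size alone. In WT, scrotum against mouth ran from -1.01 to 0.29 for PLAU, from -0.52 to 0.29 for PLAUR (0.092 with limma-voom, 0.12 with 2 libraries left out), from -0.79 to 1.06 for PLAT and from -2.77 to 4.64 for ST14 (2.46 with limma-voom and with 3 libraries left out). WT PLAT ran from -0.17 to 0.43 for mouth against nose and from -0.58 to 1.27 for scrotum against nose. LRP1 ran from -0.29 to 0.12 at nose and from -0.28 to 0.49 at scrotum, and SPINT1 at nose from -0.72 to 7.0e-05.

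Of other values not called, PLAU in DIK mouth against nose was called by DESeq2 (2.06), limma-voom (2.48), only the groups compared (2.06), the block fit (2.27) and with 2 (2.05) or 3 libraries left out (2.71), and in DIK scrotum against nose by the same fits except DESeq2 (1.49 to 2.16). The same fits but DESeq2 called it in WT mouth against nose (1.53 to 1.81), and the 3 libraries left out also in WT scrotum against mouth (-1.29). PLAUR in DIK scrotum against mouth was called by DESeq2, limma-voom, only the groups compared and with 3 libraries left out, and in DIK mouth against nose with 3 left out (1.67); its DIK scrotum against nose call was lost with no filter (2.31), only the groups compared (2.32) and the threshold of 0.01. Only the groups compared lost the PLAT calls of DIK scrotum against nose (3.87) and mouth (4.54). SERPINE2 in WT scrotum against mouth was called by DESeq2 (1.47), the block (1.39) and without WT scrotum replicate 1 (1.897). ST14 in WT was called in mouth against nose (-5.84 and -6.50) and scrotum against nose (-3.38 and -4.04) by limma-voom and with 3 left out. limma-voom and the 3 left out called PRSS8 at nose (-1.45 and -1.43), mouth (3.57 and 4.04) and scrotum (4.89 and 6.08), SPINT1 at mouth (5.61 and 6.54) and SPINT2 at nose (-1.19 and -1.17) and mouth (2.005 and 2.39). Only the groups compared called PRSS8 (-1.30) and SPINT2 (-1.18) at nose, and the 2 left out PRSS8 at scrotum (6.09). The scrotum calls of SPINT1 and SPINT2 were lost with library size alone (3.20 and 2.38), no filter (3.40 and 2.62) and the threshold of 0.01, and that of SPINT2 with only the groups compared (2.69).

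With the replicate number as a block the PLAT differences were -2.00004 at mouth (edgeR adjusted p = 0.0641) and 1.97 at scrotum (edgeR adjusted p = 0.0835), and LRP1 at scrotum was 0.036. The numbers share no source in the labels: the deviations of same-numbered DIK and WT libraries correlated at -0.05 to 0.09, 2 of 9 DIK libraries correlated best with their own number, and the block gave 5374, 6037 and 5561 called genes at nose, mouth and scrotum against 5426, 6054 and 5607 without it. Library size alone moved the median of all genes to -0.29 at mouth and -0.21 at scrotum, upper-quartile scaling to -0.15 and -0.17, and median-of-ratios scaling to -0.10 at scrotum. Depth limits WT nose most, where replicate 1 has 418665 counts.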
